A study of Mus musculus with 30 samples.

Results

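Actinobacteria outside the family Coriobacteriaceae were followed in the feces of 30 female mice (C57BL/6 by the labels, C57BL/6J per the methods) by sequencing of the bacterial 16S rRNA gene. The members were all amplicon sequence variants (ASVs, distinct 16S sequences) whose deposited taxonomy gave the phylum Actinobacteria and a named family other than Coriobacteriaceae, with at least 1 count. They made up 270 of 12980 ASVs, against 187 ASVs of Coriobacteriaceae. Another 22 Actinobacteria ASVs had no named family and were left out. The mice were 6 weeks old by their labels, which is the age at purchase per the methods, and formed 5 groups of 6. Feces were collected at the end of treatment per the methods, so the mice were older when sampled. The control group received a normal diet and saline by gavage. The model group received a high-fructose diet (HFru) and saline, and the other groups received HFru with a compound by gavage. Salidroside was given at 50 mg/kg. The tyrosol dose was 23 mg/kg and the hydroxytyrosol dose 26 mg/kg, both set from that of salidroside by molar conversion per the methods, and feeding lasted 8 weeks (12 weeks is stated elsewhere in the study). Each mouse gave 1 library, and cage assignment is not given in the sources used here. The question was how these bacteria differed with the fructose diet and with each phenylethanoid, a plant phenol of which tyrosol is the plain form, salidroside its glucoside and hydroxytyrosol the form with an added ring hydroxyl.

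Actinobacteria are Gram-positive bacteria with GC-rich genomes. In the mouse gut the phylum is usually represented by anaerobes, namely Coriobacteriaceae and Bifidobacterium, the latter a fermenter of dietary and host sugars to acetate and lactate. Many of the other families are aerobic and are better known from soil, plants, skin, cheese rinds or litter. A share below is the percent of all 16S counts of a mouse, so that a higher share and fewer other bacteria cannot be told apart.

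Libraries held 41862 to 106609 counts, so that 3 counts, the level a count of 0 allows, corresponded to shares of 0.00281% to 0.00717%. Counting intervals cover counting error only, since PCR reads are not independent molecules. The members had 20602 counts in 20 families and 30 genus entries, of which 15 were named genera and 15 were families with an unnamed genus. Most of the diversity was sparse, with 192 of the 270 ASVs (71.1%) seen in 1 mouse, the same percentage as among all ASVs (71.1%). Those 192 held 5.06% of the member counts. Arthrobacter, a genus of aerobic soil bacteria, took 61.5% of the member counts and Corynebacterium, a genus of skin, mucosal and environmental species, took 32.7%. Corynebacterium was detected in all 30 mice, Arthrobacter in 27 and Bifidobacterium in 14. At the other end, 17 of the 30 entries had 10 or fewer counts and 12 occurred in 1 mouse.

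By usual habitat, the highest mean over the 30 mice was that of genera known from soil, plants, dust and water. Arthrobacter, Leucobacter, Rhodococcus and Streptomyces together averaged 0.447%, and Arthrobacter alone averaged 0.439%. Corynebacterium, Rothia and Actinomyces, listed under skin, mouth and mucosa, averaged 0.241%. Corynebacterium alone averaged 0.237% and also has environmental species, and 82.8% of its counts were labelled Corynebacterium stationis. The name of this list is therefore not a habitat shown for these counts. Bifidobacterium, which was the genus found from the list of gut genera, averaged 0.0106%, and the 4 genera known from salt, cheese rind and litter averaged 0.0102%. The 18 entries in no list, among them Bifidobacteriaceae with an unidentified genus, averaged 0.0132%. The order was not the same in every group. In hydroxytyrosol mice the soil list averaged 0.0883% ± 0.0947 and the skin and mouth list 0.102% ± 0.0697. Bifidobacterium and the salt, cheese rind and litter list averaged 0.0145% ± 0.0160 and 0.0151% ± 0.0252 in model mice, and 0.00166% ± 0.00278 and 0.0202% ± 0.0221 in tyrosol mice. These are group labels from general knowledge of the genera, and the source of the bacteria in these feces was not tested.

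The summed share of the members was 0.323% ± 0.456 in control mice, 1.34% ± 1.15 in model mice, 0.293% ± 0.303 with salidroside, 1.43% ± 1.05 with tyrosol and 0.224% ± 0.131 with hydroxytyrosol (mean ± SD, n = 6 each). Control mice had a lowest, median and highest share of 0.0346%, 0.179% and 1.24%, and model mice of 0.209%, 1.05% and 2.76%. The corresponding values were 0.0282%, 0.151% and 0.705% with salidroside, 0.244%, 1.51% and 2.72% with tyrosol, and 0.0861%, 0.195% and 0.470% with hydroxytyrosol. All groups overlapped. Of the 8 mice above 1%, 4 were tyrosol mice, 3 model mice and 1 a control mouse, whereas no salidroside or hydroxytyrosol mouse passed 1%. The highest value, 2.76% in model mouse 5, had a 95% Wilson interval up to 2.86%, and the lowest, 0.0282% in salidroside mouse 5, one up to 0.0416%. Counting error was thus small beside the spread between mice. The sum over the members was not given a test, because the members were chosen with results of these data known.

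**Figure D1:**
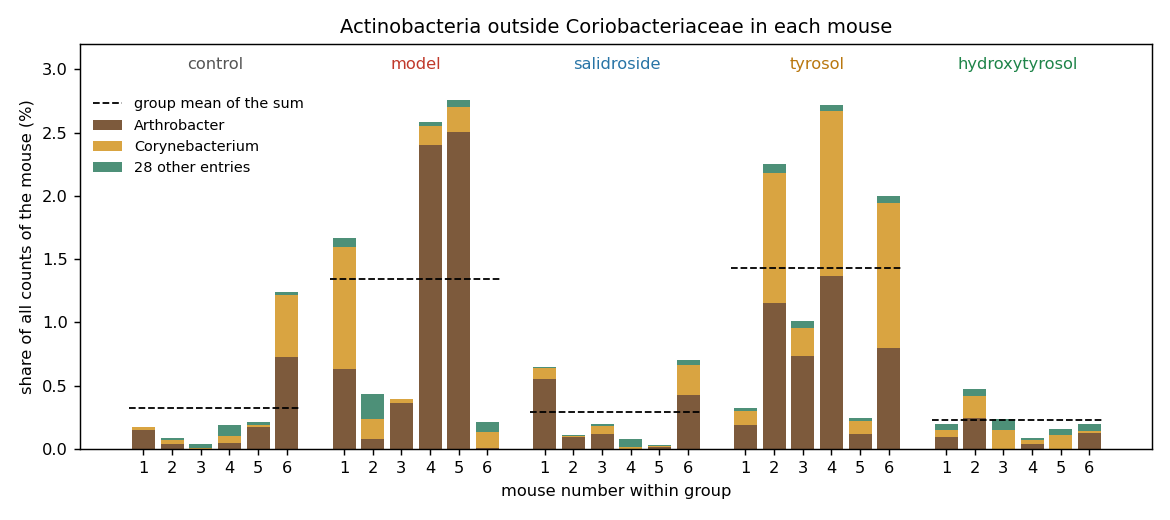
Share of all 16S counts (%) taken by Actinobacteria outside Coriobacteriaceae in each of the 30 mice, stacked as Arthrobacter, Corynebacterium and the 28 other entries, with dashed lines at the group means. The model and tyrosol groups run from 0.209% to 2.76% and from 0.244% to 2.72%, and the hydroxytyrosol mice stay at or below 0.470%.

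The difference in mean share was 1.02 percentage points for model against control mice and -1.05 and -1.12 points for salidroside and hydroxytyrosol against model mice. For tyrosol against model mice it was 0.0852 points. Acinetobacter, an aerobic genus of Gammaproteobacteria, averaged 20.5% ± 25.0 of all counts in control, 53.5% ± 30.3 in model and 32.4% ± 29.8 in salidroside mice. With tyrosol it averaged 47.3% ± 30.2 and with hydroxytyrosol 11.2% ± 17.5. Its median was 9.98% in control and 2.44% in hydroxytyrosol mice. Acinetobacter ran from 0.0312% to 84.2% over the 30 mice and so set much of the total in some of them. With Acinetobacter removed from the totals, model minus control was 3.64 points and tyrosol minus model was -0.699 points, so the sign of the latter depended on the denominator. It was also negative in 6 of the 12 values with 1 mouse left out (without model mouse 2, 3 or 6 or tyrosol mouse 2, 4 or 6), which ran from -0.173 to 0.369 points.

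The members and Coriobacteriaceae were distributed differently over the groups. Coriobacteriaceae, gut anaerobes that metabolise bile acids and plant phenols, averaged 0.924% ± 0.765 in control, 0.0841% ± 0.0549 in model, 3.06% ± 3.65 in salidroside, 3.09% ± 2.08 in tyrosol and 2.48% ± 1.82 in hydroxytyrosol mice. The members exceeded Coriobacteriaceae in 11 of 30 mice. These were all 6 model mice, 2 control mice, 2 tyrosol mice and 1 salidroside mouse, and no hydroxytyrosol mouse. The members thereby held on average 84.9% of the phylum's counts in model mice and 13.8% in hydroxytyrosol mice. The mean was 33.2% in controls, 26.8% with salidroside and 34.9% with tyrosol. Medians were 90.7% in model, 7.45% in hydroxytyrosol, 12.7% in control, 26.3% in salidroside and 37.3% in tyrosol mice. Values ran from 56.6% to 99.6% in model and from 3.24% to 45.5% in hydroxytyrosol mice. They ran from 0.724% to 65.9% with salidroside and from 4.74% to 68.7% with tyrosol. Control mice 6 and 1 had 99.5% and 62.6%, and the other controls 1.82% to 14.7%. Actinobacteria with no named family averaged 0.00369% and are counted in the phylum's total. Their highest share was 0.0227%, in model mouse 2, where the whole phylum had 0.579%.

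**Figure D2:**
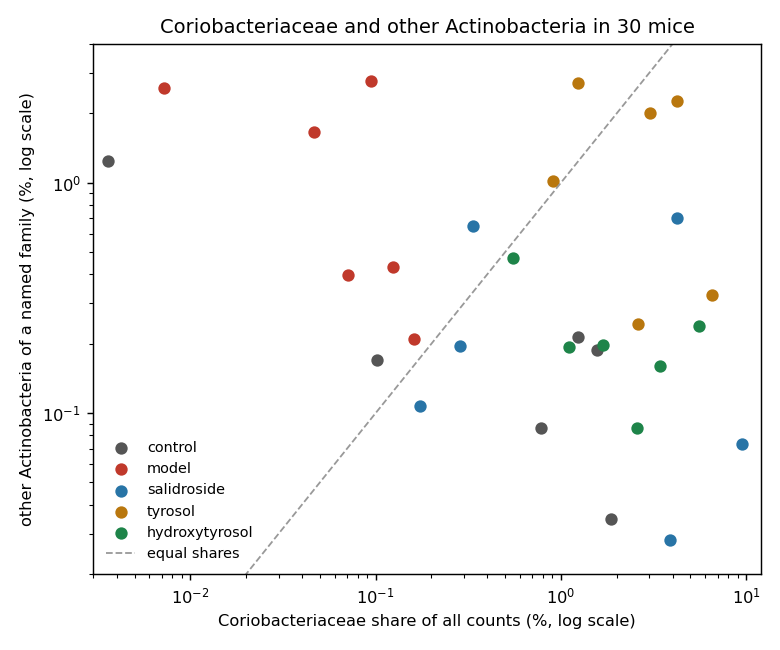
Summed share of Actinobacteria outside Coriobacteriaceae against the share of Coriobacteriaceae (both % of all counts, log scales), 1 point per mouse, with a dashed line where both are equal. All 6 model mice lie above the line and all 6 hydroxytyrosol mice below it.

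At the genus level, 5 of the 30 entries had enough counts to be tested in at least 1 of the 7 comparisons (a minimum of 10 counts in 4 or more mice out of 12), and the other 25 did not reach that minimum in any comparison of 2 groups. Together they gave 26 tests with edgeR's quasi-likelihood test, with Benjamini-Hochberg adjustment over all genera, of which 1 had an adjusted p under 0.05 and 9 an unadjusted p under 0.05. Over all genera the 7 comparisons gave 675 tests, of which 4.3% passed after and 18.2% before adjustment. In 7 of the 26 tests the entry met the minimum through 1 of the 2 groups only, with no mouse of the other at 10 counts, so that the filter itself favoured the direction of the difference. DESeq2 called 5 of the same 26 tests, against 13% of the 675, and an exact permutation test of the shares called none after adjustment, where it called 6.19% of all genera in model against control mice and 0% in the other comparisons. The model group is shared by 4 of the comparisons and each compound group by 3, so the comparisons are not independent.

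Arthrobacter had the highest mean share over the 30 mice. Its lowest, median and highest share were 0%, 0.0939% and 0.727% among the controls. Model mice had 0.00797%, 0.496% and 2.51%. They were 0%, 0.104% and 0.550% with salidroside, 0.117%, 0.767% and 1.37% with tyrosol, and 0%, 0.0637% and 0.241% with hydroxytyrosol. Model mice 4 and 5, at 2.40% and 2.51%, stood above every other mouse, and model mouse 6 was lower than 5 of the 6 control mice. The mean was 0.998% ± 1.15 in model mice and 0.0831% ± 0.0925 in hydroxytyrosol mice (SD, n = 6), a log2 fold change of -4.17 (95% interval -7.66 to -0.68, edgeR adjusted p = 0.160, exact permutation p = 0.0476 before and 0.219 after adjustment). DESeq2 put the same comparison at an adjusted p of 0.0465. Against tyrosol (0.727% ± 0.502), hydroxytyrosol gave -2.90 (-5.60 to -0.19, edgeR adjusted p = 0.205, DESeq2 adjusted p = 0.0332), with the share lower in 33 of the 36 pairs of mice. Model against control mice (0.187% ± 0.272) gave 1.63 (-1.51 to 4.77, edgeR adjusted p = 0.481), with 1.27 to 4.04 when 1 mouse was left out and the highest value (adjusted p = 0.0558) without control mouse 6. Salidroside (0.199% ± 0.232) against model gave -2.56 (-5.68 to 0.56, adjusted p = 0.432).

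Corynebacterium showed another order of groups. Its lowest, median and highest share were 0.00954%, 0.0261% and 0.490% among the controls. Model mice had 0.0296%, 0.151% and 0.962% and salidroside mice 0.0091%, 0.0403% and 0.237%. The values were 0.106%, 0.619% and 1.30% with tyrosol and 0.0148%, 0.0834% and 0.177% with hydroxytyrosol. Tyrosol mice 2, 4 and 6, at 1.02%, 1.30% and 1.15%, were the highest of all 30, and the other 3 tyrosol mice lay between 0.106% and 0.215%, within the range of the model mice. The mean was 0.652% ± 0.564 with tyrosol, 0.0901% ± 0.0643 with hydroxytyrosol and 0.0708% ± 0.0875 with salidroside. Hydroxytyrosol against tyrosol gave a log2 fold change of -2.82 (95% interval -4.64 to -1.01, edgeR adjusted p = 0.0949, DESeq2 adjusted p = 0.00150, exact permutation p = 0.0238 before adjustment). Salidroside against tyrosol gave -3.11 (-5.43 to -0.80, edgeR adjusted p = 0.268), with salidroside lower in 33 of 36 pairs. For tyrosol against model mice (0.269% ± 0.344) the log2 fold change was 1.60 (-0.46 to 3.65, edgeR adjusted p = 0.423), with 0.625 without tyrosol mouse 4 and 2.22 without model mouse 1 as the lowest and highest values when 1 mouse was left out.

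**Figure D3:**
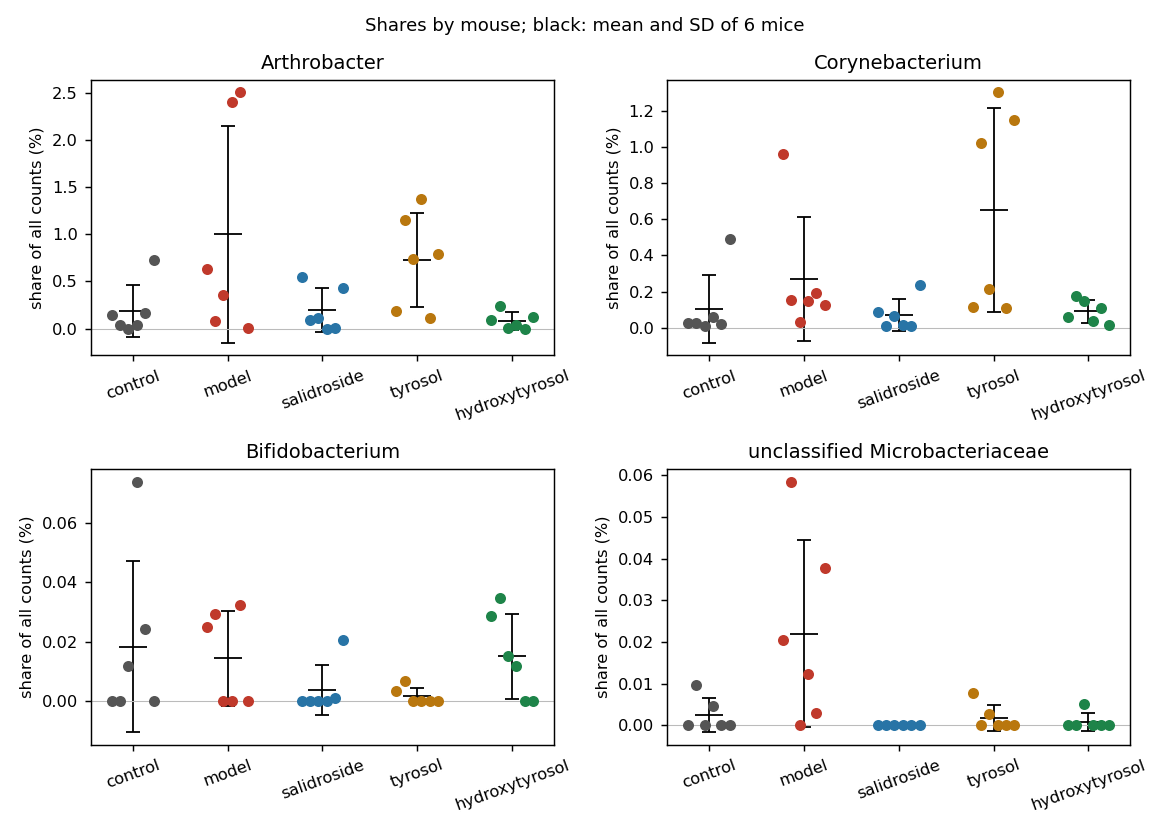
Shares of all counts (%) of Arthrobacter, Corynebacterium, Bifidobacterium and Microbacteriaceae of unclassified genus by group, 1 point per mouse, with bars for the mean and SD of 6 mice and a separate axis for each panel. Model mice 4 and 5 lead the Arthrobacter panel, 3 tyrosol mice lead the Corynebacterium panel, and all 6 salidroside mice are at 0 in the Microbacteriaceae panel.

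Microbacteriaceae of unclassified genus, a family known mainly from soil, plants and water, gave the single genus-level call of edgeR in the comparisons of 2 groups. Model mice had 18, 54, 0, 12, 3 and 38 counts and all 6 salidroside mice had 0. The mean share was 0.0220% ± 0.0225 in model mice, at least 5.44-fold above the salidroside group's mean limit of 3 counts per library, and at least 3.64-fold without model mouse 2, the highest. The entry met the count minimum through 4 model mice and no salidroside mouse, so its passing the filter was tied to its direction, and the call is given as a description. edgeR's adjusted p was 0.0270 with the minimum and 0.0324 with no filter on low counts, and that of DESeq2, which called 7.22% of all genera, was 0.00748. This 1 call of 4 members tested stands against a background of 4.12% of all 97 genera called in either direction and 3.09% called lower in salidroside against model mice. The call was lost with centred log-ratios (adjusted p = 0.124) and with the exact permutation test (p = 0.0152 before and 0.280 after adjustment), and in 9 of the 12 fits that left out 1 mouse. Those were the fits without model mouse 1, 2, 4 or 6, in each of which the entry no longer passed the count minimum, and without salidroside mouse 2, 3, 4, 5 or 6, with adjusted p between 0.0519 and 0.0894. At the family level Microbacteriaceae was also called (edgeR adjusted p = 0.00199, and 0.0192 with no filter on low counts), where 13.2% of families tested were called. The family held the same counts in these 12 mice and is no separate evidence.

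In the other groups the same entry was at 0.00241% ± 0.00405 in control, 0.00176% ± 0.00314 in tyrosol and 0.000838% ± 0.00205 in hydroxytyrosol mice, with counts in 2, 2 and 1 of 6 mice. All these groups overlapped with the model mice, since model mouse 3 had 0 counts. The log2 fold change was 3.08 for model against control (95% interval -0.28 to 6.44, edgeR adjusted p = 0.187), -3.48 for tyrosol against model (-6.76 to -0.19, adjusted p = 0.192) and -5.38 for hydroxytyrosol against model (-8.71 to -2.05, adjusted p = 0.0571). In all 3 of these comparisons the entry met the minimum through the model mice only. With no filter on low counts the adjusted p was 0.116, 0.179 and 0.147 in the same order. Hydroxytyrosol against model passed with DESeq2 (adjusted p = 0.0277) and with centred log-ratios (0.0433). It also passed in edgeR without hydroxytyrosol mouse 3, but that mouse was the one of its group with counts, so leaving it out sets the group to 0 and supports nothing.

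Bifidobacterium was sparse in every group, with 251 counts in 14 of the 30 mice. It was found in 3 control, 3 model, 2 salidroside, 2 tyrosol and 4 hydroxytyrosol mice. Its highest share was 0.0741% in control mouse 4, and the highest in the other groups were 0.0326% in model, 0.0207% in salidroside, 0.00666% in tyrosol and 0.0348% in hydroxytyrosol mice. The mean was 0.0184% ± 0.0289 in control and 0.0145% ± 0.0160 in model mice, with an edgeR log2 fold change of -0.06 (95% interval -3.17 to 3.06, adjusted p = 0.971) whose sign changed with the scaling. Hydroxytyrosol (0.0151% ± 0.0144) against tyrosol (0.00166% ± 0.00278) gave 3.43 (0.17 to 6.70, edgeR adjusted p = 0.205), with hydroxytyrosol higher in 24 of 36 pairs and lower in 4. Here the minimum was met by 4 hydroxytyrosol mice and no tyrosol mouse, and with no filter the adjusted p was 0.187. Salidroside (0.00364% ± 0.00838) against hydroxytyrosol gave -1.85 (-5.20 to 1.51, adjusted p = 0.625).

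The species labels within Bifidobacterium were split between mice. B. pseudolongum, a species of animal intestines, had 89 counts in 5 mice (1 control, 2 model and 2 tyrosol). B. animalis had 23 counts in 2 control mice, and B. breve, known from the infant gut, had 37 counts in 2 hydroxytyrosol mice. B. longum, another species of the human gut, had 37 counts in 4 mice, of which 3 were hydroxytyrosol and 1 model. With so few counts, the absence of a species from a mouse was not established.

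Bifidobacteriaceae with an unidentified genus had 126 counts in 13 mice. None was in a control mouse, and counts occurred in 4 model mice and in 3 mice of each compound group. The highest share was 0.0219%, in model mouse 6. The entry did not reach the count minimum in any comparison of 2 groups. In a single fit of all 30 mice, where it did, it was called in model against control mice (edgeR adjusted p = 0.0300), as were 27.1% of the 140 genera in that fit. Its share of 0.00801% ± 0.00816 in model mice was at least 1.80-fold above the control group's mean limit of 3 counts per library, and at least 1.18-fold without model mouse 6.

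Brachybacterium, a genus of cheese rinds and poultry litter, had 131 counts in 9 mice, of which 4 were tyrosol mice with 78 counts. Its mean was 0.0129% ± 0.0115 with tyrosol, 0.000447% ± 0.00109 with salidroside and 0.00209% ± 0.00511 with hydroxytyrosol. Control mice averaged 0.00359% ± 0.00879 (18 counts in 1 mouse) and model mice 0.00396% ± 0.00615 (24 counts in 2 mice). Tyrosol against model gave a log2 fold change of 1.72 (95% interval -1.51 to 4.95, edgeR adjusted p = 0.542), with 0.34 to 1.98 when 1 mouse was left out and the lowest value without tyrosol mouse 2. Hydroxytyrosol against tyrosol gave -2.70 (-6.13 to 0.74, adjusted p = 0.391). The 9 counts of the hydroxytyrosol group were all in its mouse 2, without which the group is at 0. Salidroside mice had 2 counts in all, too few for a fold (adjusted p = 0.270 against tyrosol). In the comparisons of salidroside and hydroxytyrosol with tyrosol the minimum was met by 4 tyrosol mice and no mouse of the other group. Leaving out any of those 4 took the entry below it, and with no filter the adjusted p was 0.210 and 0.281.

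The next entries did not reach the minimum for a test. Rhodococcus, soil bacteria that break down hydrocarbons, was thin but widespread, with 124 counts in 20 mice, including all 6 model mice, and no share above 0.0222%. Brevibacterium, of cheese rinds and skin, had 118 counts in 10 mice, of which 60 were in model mouse 2. Rothia, of the mouth and upper airways, had 86 counts in 6 mice, of which 65 counts were in 3 hydroxytyrosol mice, and 38 of those were in hydroxytyrosol mouse 3. Leucobacter had 71 counts, of which 67 were in tyrosol mice 3 and 4. The 20 entries ranked below these had 152 counts in all, with the highest mean share at 0.00124%. Among them Yaniella, named after its values were seen, had 29 counts, all in hydroxytyrosol mice 1 and 5.

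In model against control mice none of the 4 members tested was called by edgeR, where 17.5% of 97 genera were called, and none had an unadjusted p under 0.05. DESeq2 also called none, had 1 at an unadjusted p under 0.05, and called 39.2% of all genera. Corynebacterium averaged 0.269% in model and 0.105% ± 0.189 in control mice and was higher in the model mouse in 30 of 36 pairs. Its edgeR log2 fold change was nevertheless -0.13 (95% interval -3.11 to 2.84, adjusted p = 0.943), with a sign that turned under most other scalings. In tyrosol against model mice edgeR called none of 4 (1 at an unadjusted p under 0.05) against 1.94% of 103 genera, and DESeq2 none (1 unadjusted) against 6.8%.

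In hydroxytyrosol against model mice edgeR called none of 4 members (2 at an unadjusted p under 0.05) against 4.95% of 101 genera. DESeq2 called 2, Arthrobacter and Microbacteriaceae of unclassified genus, where it called 12.9% of all genera. At the family level edgeR called Micrococcaceae, the family of Arthrobacter, at a log2 fold change of -4.29 (SE 1.28, adjusted p = 0.0291), where 11.9% of families were called. The share was 1.001% ± 1.15 in model and 0.0967% ± 0.0851 in hydroxytyrosol mice, which overlapped. The family call was lost without library-composition scaling (adjusted p = 0.0789) and without any one of model mouse 4 or 5 or hydroxytyrosol mouse 1, 3, 4, 5 or 6, with adjusted p between 0.0601 and 0.114.

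The 3 compounds were also compared with each other. Salidroside against tyrosol gave no call among 3 members (2 at an unadjusted p under 0.05) and 0% of 92 genera in edgeR. DESeq2 also called none of the 3 (2 unadjusted), and 5.43% of all genera. Hydroxytyrosol against tyrosol gave none of 4 in edgeR (3 unadjusted), against 1.04% of 96 genera, and 2 in DESeq2, Corynebacterium and Arthrobacter, against 12.5%. Salidroside against hydroxytyrosol gave none of 3 in edgeR or DESeq2 (0 unadjusted), and 0% and 6.74% of 89 genera. For that pair the log2 fold change of Corynebacterium was 0.14 (95% interval -1.75 to 2.03) and that of Arthrobacter 1.40 (-1.77 to 4.58). The intervals include differences of several fold either way, so these data do not show that the glucoside and the ring-hydroxylated form left the same levels.

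**Figure D4:**
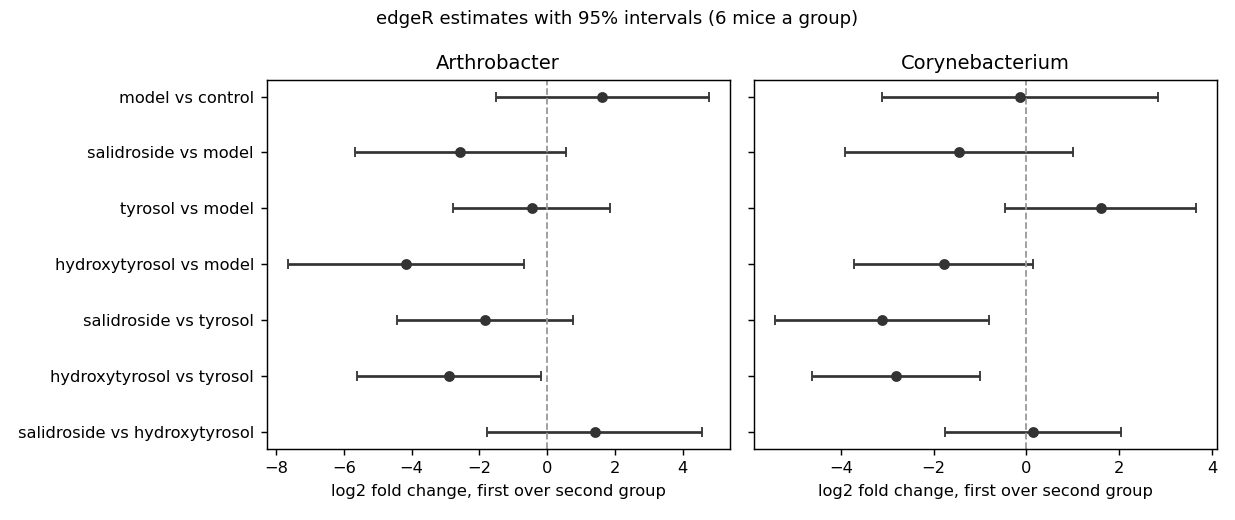
edgeR log2 fold changes of Arthrobacter and Corynebacterium in the 7 comparisons, first group over second, with 95% intervals and a dashed line at 0. Before adjustment 4 intervals lie below 0, those of Corynebacterium for salidroside and hydroxytyrosol against tyrosol and those of Arthrobacter for hydroxytyrosol against model and against tyrosol, and no estimate shown had an edgeR adjusted p under 0.05.

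Within the leading genera, the same sequence led Corynebacterium in most mice, whereas different sequences led Arthrobacter. Among the 19 mice with at least 50 Corynebacterium counts, the same ASV led in 17, and the leading ASV held a median of 80.3% of the genus counts (range 38.3% to 100%, with up to 19 ASVs in 1 mouse). The ASV that led most often, labelled C. stationis, had 4916 counts in 27 mice, or 23.9% of all member counts. ASVs labelled C. stationis together held 82.8% of the genus and occurred in all 30 mice. Among the 20 mice with at least 50 Arthrobacter counts, 6 different ASVs led, with a leading share of 25.0% to 97.7% (median 43.8%) and up to 27 ASVs in 1 mouse. ASVs with no species name held 99.5% of Arthrobacter counts.

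The next most abundant member ASVs were 4 Arthrobacter variants with 3390, 3136, 2612 and 1216 counts, in 13, 20, 15 and 13 mice. Their highest counts were in model mouse 4, tyrosol mouse 4, model mouse 5 and model mouse 4. The sixth, also Arthrobacter, had 724 counts in 16 mice, among them 5 control, 4 model and 5 tyrosol mice but no hydroxytyrosol mouse. Its share of 0.0351% ± 0.0446 in model mice was at least 10.2-fold above the hydroxytyrosol group's limit of 3 counts per library, and at least 5.40-fold without the highest model mouse (edgeR on single ASVs, adjusted p = 0.00454, and 0.104 with no filter on low counts). The ninth, a Corynebacterium of unidentified species, had 256 counts in 8 mice and none in hydroxytyrosol mice. Its share of 0.0142% ± 0.0119 in tyrosol mice was at least 4.12-fold above that limit, and at least 3.28-fold without the highest tyrosol mouse (adjusted p = 0.0128, and 0.117 with no filter). Both passed the minimum through the group where they were high, with no hydroxytyrosol mouse at 10 counts, so neither call supports a difference. Calls of single ASVs were common, with 32.8% of 290 ASVs called in hydroxytyrosol against model and 27.0% of 319 in hydroxytyrosol against tyrosol, so 1 call of 7 and 1 of 8 member ASVs were below the background. The remaining 3 of the 10 leading ASVs had 457, 308 and 238 counts, in 5, 6 and 12 mice.

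The number of member ASVs per mouse was highest in the same groups as the summed share, at 13.3 ± 13.2 in control, 27.7 ± 12.5 in model, 13.7 ± 11.8 in salidroside, 29.2 ± 15.8 in tyrosol and 10.5 ± 4.18 in hydroxytyrosol mice. In the authors' rarefied table, which holds the same total for every mouse, it was 12.2 ± 11.3, 21.5 ± 10.2, 12.2 ± 10.3, 24.0 ± 12.2 and 9.17 ± 3.71.

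Across mice, Arthrobacter and Acinetobacter shares went together. Over the 30 mice Spearman's rho was 0.778 and Pearson's r on log10 shares was 0.843, each with a permutation p of 1e-05, the smallest that 100000 permutations can give, and 3e-05 after adjustment over the 3 relations computed. Both shares have the same library total as their denominator, and the relations were chosen after the data were seen. For all 3 relations the permutations over the 30 mice took no account of group. Those p-values therefore mix differences between groups with relations between mice of a group. Without the 2 mice farthest from the median Acinetobacter share on the log10 scale, hydroxytyrosol mice 3 and 5, r was 0.789. Within groups rho was 0.886 in control, 0.486 in model, 0.829 in salidroside, 0.0857 in tyrosol and 0.943 in hydroxytyrosol mice (n = 6 each, exact permutation p = 0.033, 0.36, 0.058, 0.92 and 0.017, unadjusted). On log10 shares r was 0.944 in control, 0.830 in model, 0.849 in salidroside, -0.037 in tyrosol and 0.992 in hydroxytyrosol mice (exact permutation p = 0.011, 0.10, 0.042, 0.88 and 0.0028, unadjusted). Whether the groups differ in the relation was not tested. Tyrosol mouse 6 had 1.05% Acinetobacter and 0.796% Arthrobacter. In the 5 mice with under 0.2% Acinetobacter, a limit set after the values were seen, Arthrobacter was at most 0.00797%, and in the other 25 it ran from 0.0113% to 2.51%. The values next to the gap rest on 8 counts in model mouse 6 and 10 counts in salidroside mouse 5, too few to tell their shares apart. The split restates the relation and marks no threshold.

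Corynebacterium followed Acinetobacter less closely in these values, with a rho of 0.314 (permutation p = 0.092, adjusted 0.092) and an r of 0.262 (p = 0.16, adjusted 0.16), and without the same 2 mice an r of 0.356. Within groups rho ran from -0.371 to 0.486. In the 5 mice with the least Acinetobacter, Corynebacterium still reached 0.147%. Whether the relations of Acinetobacter with Arthrobacter and with Corynebacterium differ from each other was not tested. Arthrobacter and Corynebacterium went together at a rho of 0.652 (permutation p = 0.00015, adjusted 0.00022) and an r of 0.572 (p = 0.001, adjusted 0.0015), and at an r of 0.610 without the 2 farthest mice. Within groups that rho was 0.943 with tyrosol (exact permutation p = 0.017, unadjusted). It was between -0.0286 and 0.714 in the other groups, each with an exact permutation p of 0.14 or more. Arthrobacter exceeded Corynebacterium in 20 of 30 mice. What links these shares was not tested.

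**Figure D5:**
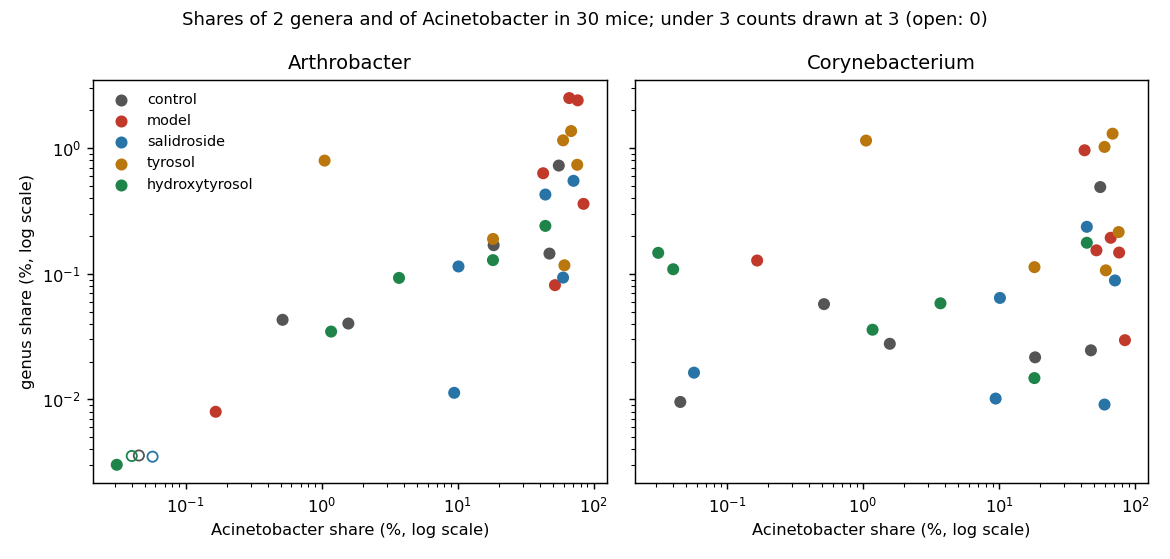
Shares of Arthrobacter (left) and Corynebacterium (right) against the share of Acinetobacter (all % of all counts, log scales), 1 point per mouse, with values under 3 counts drawn at 3 counts and open points for 0 counts. Arthrobacter points run broadly from the lower left to the upper right, with tyrosol mouse 6 (1.05% Acinetobacter, 0.796% Arthrobacter) above and salidroside mouse 5 (9.43%, 0.0113%) below mice of a like Acinetobacter share, and Corynebacterium points are scattered over the whole range of Acinetobacter.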

How the data were processed

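The authors deposited tables of raw 16S counts per ASV and mouse, with taxonomy, before and after removal of rare ASVs and rarefied to 1 total per mouse. The study's methods name FLASH, QIIME and UCHIME, and the submitters' processing notes name cutadapt. The taxonomy reference is not given in the sources used here. The labels list total RNA, whereas the extraction protocol describes DNA. The filtered counts were used as deposited. Library totals were 41862 to 106609 and equalled the deposited read log in 30 mice, and none of the 75 pairs of mice within groups had identical counts. Counts were summed by genus as labelled in the file. Genera with a minimum of 10 counts in 4 or more mice out of 12 were tested with edgeR 4.0.16 (quasi-likelihood F-test, TMM scaling, only the 2 groups compared, no covariates, two-sided, R 4.3.3), and p-values were adjusted (Benjamini-Hochberg) over all genera tested, with a threshold of 0.05. Intervals are 95% intervals of the log2 fold change. The fit was tested on simulated data. DESeq2 1.42.0, limma 3.58.1 on centred log-ratios (0.5 added), and exact two-sided permutation of shares (smallest p possible 0.00216) were alternatives, with the others in the closing section. Relations across mice used log10 shares floored at 3 counts.

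Members, habitat lists and tests were chosen with earlier results of these data known. Taxa named were Bifidobacterium and the 10 entries of highest mean share, every member genus or family called, the 10 member ASVs of most counts, Coriobacteriaceae, Actinobacteria with no named family, and Acinetobacter. Sequences of ASVs are not printed. Nothing in the labels gives cage or batch. The p-values of the group comparisons set a difference between 2 groups against the spread between mice within them. Whether mice of a group shared a cage, and so were not independent, is not known.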

Additional observations from a re-analysis of the deposited data

Results flagged for a closer look

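A mouse was looked for in each group of 6 whose gap to its nearest neighbour, relative to the range of the group, passed Dixon's 95% critical value. This was done for the summed share and the 10 leading entries in the 21 groups with at least 4 mice above 3 counts. It found 6. The critical value is passed in about 1 in 20 cases only where values are normally distributed. Shares here were skewed, as for Corynebacterium in control mice (mean 0.105%, median 0.0261%), so the 6 cannot be set against that rate. Control mouse 6 stood apart in its summed share (1.24%, others 0.0346% to 0.215%), its Arthrobacter share (0.727%, others 0% to 0.169%) and its Corynebacterium share (0.490%, others 0.00954% to 0.0573%). These values are linked, since the genera make up most of the sum. The same mouse had 55.4% Acinetobacter and 0.00359% Coriobacteriaceae, the highest and the lowest of the control group. Without it the difference in summed share of model against control mice was 1.20 percentage points, and 1.02 with it. The edgeR log2 fold change of model against control rose without it from 1.63 (adjusted p = 0.481) to 4.04 (0.0558) for Arthrobacter, and went from -0.13 (0.943) to 3.06 (0.0819) for Corynebacterium.

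Corynebacterium stood apart in model mouse 1 (0.962%, others 0.0296% to 0.193%) and in salidroside mouse 6 (0.237%, others 0.0091% to 0.0885%). Rhodococcus stood apart in model mouse 2 at 0.0141%, with the others at 0.00102% to 0.00575%.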

How the results depend on the processing

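The mice of different groups share only a number, which does not pair them, and the title numbers used here differ from those in the table's column names for model, hydroxytyrosol and salidroside mice. Correlations between same-numbered mice of compared groups ran from -0.407 to 0.453 and their medians from -0.150 to 0.118, and at most 2 of 6 mice correlated best with their own number. By the column numbers, 3 to 5 of which are shared in each comparison, the correlations ran from -0.253 to 0.370, and in no comparison were all above 0.1. With the replicate number as a replicate block, the 1 member genus called in salidroside against model mice became 0 (Microbacteriaceae of unclassified genus, adjusted p = 0.337), and the count stayed at 0 in the other 6 comparisons. The salidroside against model count was also 0 with centred log-ratios and with exact permutation, and 0 to 1 with 1 mouse left out. With a minimum of 50 counts and with the rarefied table the entry did not pass the filter, so those counts of 0 do not test its call. With single ASVs the count was 0 as well, where 7 of the entry's 8 ASVs occurred in 1 mouse only. In hydroxytyrosol against model it was 0 in the main fit, 2 with DESeq2, 1 with centred log-ratios, 1 with families, 1 with single ASVs, and 0 to 1 with 1 mouse left out. It was 2 with DESeq2 and 1 with single ASVs in hydroxytyrosol against tyrosol, and 1 in model against control in a single fit of all 30 mice. The other 92 of 105 counts under alternatives that keep all mice were the same as in the main fit, and so were 74 of 84 with 1 mouse left out. Summed shares of totals without Acinetobacter differed by 3.64 percentage points in model against control, -3.58 and -3.96 in salidroside and hydroxytyrosol against model, -2.88 and -3.26 in salidroside and hydroxytyrosol against tyrosol, and 0.386 in salidroside against hydroxytyrosol. On the full totals that last difference was 0.0687 points for means and -0.0438 for medians, and -0.0138 to 0.122 with 1 mouse left out, below 0 without salidroside mouse 1 or 6. The unfiltered table, the rarefied table and counting ASVs with no named family moved no difference by as much as the SD between mice.

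Several log2 fold changes near 0 took the other sign. For Bifidobacterium in model against control (-0.06) the values were 0.69 with singleton-paired TMM, 0.61 with DESeq2, 0.72 without a count minimum, 0.034 with all 30 mice, 0.79 without Acinetobacter in the totals, 0.54 with the replicate block and -0.66 to 1.44 with 1 mouse left out. For Corynebacterium in model against control (-0.13) they were 1.35 without TMM, 0.59 with singleton-paired TMM, 1.22 with DESeq2, 2.08 with centred log-ratios, 0.84 without a count minimum, 1.95 with a minimum of 50 counts, 0.59 with all 30 mice, 0.99 with the rarefied table, 1.51 with unnamed genera of a family merged (added after seeing the data), 1.47 without Acinetobacter, 2.22 with the replicate block and -0.37 to 3.06 with 1 mouse left out, and the difference in share was 0.164 points. Arthrobacter in tyrosol against model (-0.45) was 0.25 with centred log-ratios and 0.49 with the replicate block. Bifidobacterium in hydroxytyrosol against model (-0.04) was 0.057 without TMM, 0.042 with singleton-paired TMM, 0.32 with DESeq2, 0.34 with centred log-ratios, 0.46 without a count minimum, 0.61 with all 30 mice, 1.25 with the replicate block, 0.000588 points as a share and -0.64 to 1.26 with 1 mouse left out. Corynebacterium in salidroside against hydroxytyrosol (0.14) was -0.35 without TMM, -0.58 with centred log-ratios, -0.085 with the rarefied table, -0.76 with the replicate block, -0.0193 points as a share and -0.88 to 0.43 with 1 mouse left out. The cause was not tested. The calls of Microbacteriaceae as a family and of the sixth and ninth ASVs held without TMM, and leaving out any 1 of the 4 mice that carried each took it below the count minimum, so the other 8 fits with 1 mouse left out say nothing of stability. With no filter on low counts the ASV calls were lost (adjusted p = 0.104 and 0.117) and the family kept its call (0.0192). These checks were added after seeing the data. With 6 mice a group and most entries at a few counts, 25 of 30 entries did not reach the minimum in any comparison of 2 groups.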
